A study of Homo sapiens with 4 samples.

Results

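The response to GC7 was compared between proliferating and senescent fibroblasts, gene by gene. BJ-Ras-ER cells are hTERT-immortalized human BJ foreskin fibroblasts that carry H-Ras V12 fused to an estrogen receptor domain. Treatment with 100 nM 4-hydroxytamoxifen (4-OHT) for 12 days switches the fusion on and leads to oncogene-induced senescence (OIS). GC7 blocks deoxyhypusine synthase (DHPS), the enzyme that starts the hypusination of the translation factor eIF5A. Ribosome footprints were sequenced from proliferating cells without 4-OHT and from OIS cells, each given DMSO or 10 µM GC7 for 18 h, so that all 4 groups carry the same fusion and hTERT and each group is 1 library. For every gene the log2 ratio of GC7 over DMSO in proliferating cells was subtracted from the same ratio in OIS cells. A positive difference therefore means that the ratio was higher in OIS cells, and a negative one that it was lower. The 6326 members were all nuclear features whose counts added up to 400 or more across the 4 libraries, of 57783 nuclear features and 57820 features in all. Of the members, 6135 could be named and 6074 of these are protein-coding genes.

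The states and treatments follow the sample titles. The treatment entries contradict the titles for 2 libraries, the one titled proliferating with GC7 and the one titled OIS with DMSO, and under those entries no difference of responses could be formed. Total counts ran from 3039026 to 6553835 per library and counts on members from 2556491 to 6182470. Mitochondrial transcripts, which are not members, took 2.89% and 12.2% of the proliferating and OIS libraries titled DMSO and 0.028% and 0.141% of those titled GC7. With 1 library per group there is no replicate error and no test, so each difference is given with a 95% exact interval that covers counting error only, and reads are not known to be independent molecules. Footprint counts alone do not separate mRNA level from ribosome occupancy. Summed levels of the 9 named fibroblast markers were 51394 CPM (read counts scaled to 1e+06 of the TMM library size) in proliferating cells with DMSO, 44582 with GC7, 22330.3 in OIS cells with DMSO and 16616 with GC7. COL1A1 and COL1A2, the chains of type I collagen, were abundant in all 4 libraries. With DMSO, COL1A1 stood at 21549 CPM in proliferating and 3337.5 CPM in OIS cells. Several other fibroblast markers were also far lower in OIS than in proliferating cells with DMSO. COL3A1 stood at 1613 CPM in proliferating and 159 CPM in OIS cells, DCN at 657 and 20.5 CPM and LUM at 2532 and 147 CPM. PDGFRB (727 and 620 CPM) and THY1 (679 and 600 CPM) differed little with DMSO, and only VIM was higher in OIS cells there. With GC7, THY1 was also higher in OIS cells (817 CPM against 722 CPM). The epithelial markers summed to at most 239 CPM, of which KRT18 made 233 CPM. The endothelial markers summed to at most 1.18 CPM and the immune markers to at most 4.58 CPM, with PTPRC at 19, 23, 0 and 0 counts. MMP1, a collagenase of the senescent secretome, stood at 191 and 256 CPM in the proliferating libraries and at 4254 and 4515 CPM in the OIS libraries. CDKN1A, which encodes the cell cycle inhibitor p21, stood at 237 and 360 CPM against 623 and 901 CPM. LMNB1, whose loss marks senescence, stood at 156 and 88.6 CPM against 43.8 and 31.5 CPM. The 6 cycling markers summed to 1103 and 928 CPM against 479 and 391 CPM, so they were lower but not absent in the OIS libraries.

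As background, eIF5A binds stalled ribosomes and helps them form peptide bonds at proline-rich and other slow stretches and release the finished chain, and it needs hypusine, made from the polyamine spermidine, to do so. The integrated stress response raises the translation of ATF4, a transcription factor that drives genes of amino acid synthesis, amino acid transport and tRNA charging. Ribosomal protein mRNAs start with a C followed by an unbroken run of pyrimidines, the 5′ terminal oligopyrimidine (TOP) tract, through which growth signals control their translation. Genes of cholesterol synthesis answer to sterol supply through the SREBP2 transcription factor.

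The TOP starts below are shown because cytosolic ribosomal proteins made up 27 of the 124 members with a higher GC7 response in OIS cells. They make up 60 of all 6326 members. The windows were picked by lower interval bound from ribosomal proteins and TPT1 that have a TOP start. Genes without one were left out, so the windows do not show how common the tract is. Each sequence runs from 10 bases before to 20 bases after an annotated RefSeq start (GRCh38.p14), and capitals mark the pyrimidine tract from the first transcribed base. RPS19 lies at chr19:41860245-41860274 on the plus strand, RPL27A at chr11:8682782-8682811 (plus), TPT1 at chr13:45341164-45341193 (minus), RPL13A at chr19:49487598-49487627 (plus), RPL28 at chr19:55385922-55385951 (plus) and RPS3 at chr11:75399508-75399537 (plus).
RPS19: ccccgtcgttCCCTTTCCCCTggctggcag
RPL27A: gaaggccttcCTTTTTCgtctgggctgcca
TPT1: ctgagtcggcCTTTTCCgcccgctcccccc
RPL13A: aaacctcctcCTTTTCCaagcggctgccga
RPL28: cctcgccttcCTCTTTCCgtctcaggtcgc
RPS3: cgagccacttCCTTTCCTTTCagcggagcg
The tract measured 7 bases in RPL27A, TPT1 and RPL13A, 8 bases in RPL28 and 11 bases in RPS19 and RPS3.

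The next windows are shown because they hold TGATGNAAN, the core of the element that C/EBP-ATF dimers such as ATF4 are known to bind, upstream of stress genes whose GC7 response was lower in OIS cells. Capitals mark the match, which lies on the opposite strand in CHAC1 and GARS1, where the capitals read as its reverse complement. The windows are chr15:40953245-40953285 (plus) for CHAC1, chr7:97872452-97872492 (minus) for ASNS and chr7:30594828-30594868 (plus) for GARS1 in GRCh38.p14, with the match starting at position -210, -68 and -34 relative to the annotated start.
CHAC1: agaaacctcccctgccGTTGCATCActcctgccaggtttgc
ASNS: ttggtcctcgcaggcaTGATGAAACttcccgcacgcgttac
GARS1: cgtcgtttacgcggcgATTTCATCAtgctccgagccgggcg
A match is a description of the sequence and not evidence of binding. The match was also found upstream of ANK2, TACC2 and CEBPG, whose GC7 responses were lower in OIS cells too (-1.78, -1.51 and -1.28). Their windows are not shown. The windows shown were picked from stress genes, so they do not show that the match is confined to such genes. The call of GARS1 ended with total-count scaling (-0.88).

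For most members the responses of the 2 states lay close together. The difference of the log2 ratios had a median of -0.03 over the 6326 members, quartiles of -0.34 and 0.27 and a median absolute size of 0.30, and it was under 0.5 in size for 72.6% of them. A typical interval reached 0.40 to either side. A member was called when its ratios differed at least 2-fold and the interval excluded 0. By this rule 124 members (1.96%) had a higher and 176 (2.78%) a lower GC7 response in OIS cells, together 300 (4.74%). Of all members 2947 had a positive and 3379 a negative difference. These shares over all members are the reference for every list below, and counts near them are no result about a list. The interval alone lay above 0 for 1104 members (17.5%) and below 0 for 1427 (22.6%). When the libraries were scaled by their total count over the members instead of TMM, the median difference moved from -0.03 to 0.15, the calls became 238 higher and 111 lower, and the share of calls that were higher went from 41.3% to 68.2%. Calls that this scaling ends are named beside the genes, as are calls that end when a running median of the difference over exonic length is subtracted (the length trend removed).

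No member passed the 2-fold rule with opposite signs in the 2 states (0%), while 56 of the higher and 66 of the lower calls had ratios of opposite sign with both intervals off 0. In proliferating cells GC7 came with a rise of 114 members (1.8%) and a fall of 50 (0.79%), and in OIS cells with a rise of 71 (1.12%) and a fall of 94 (1.49%). Of the 176 members with a lower response in OIS cells, 61 rose in proliferating cells and did not pass in OIS cells, and 3 (TRIB3, PSAT1 and VEGFA) rose in both. A further 43 fell in OIS cells and did not pass in proliferating cells, 2 (DICER1 and PPFIBP2) fell in both and 67 passed in neither state alone. The call of PPFIBP2 ended with total-count scaling (-0.96) and with the length trend removed (-0.93). Of the 124 with a higher response, 22 fell in proliferating cells, 27 rose in OIS cells and 75 passed in neither. The counts of each state rest on the same libraries as the difference and are given as its breakdown. Of the 64 lower members that rose in proliferating cells, 22 (34.4%) belonged to the ATF4, one-carbon, amino acid, tRNA synthetase or NRF2 lists, which hold 73 of all members (1.15%). None of the 45 that fell in OIS cells did, which at that share of all members is no result about them.

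Ranked by interval bound, the low extremes held stress genes beside SYNE3, DYNC2H1, SYNE1 and COL6A3, which are described further below. The high extremes were led by ALDH1A1, with ribosomal protein genes as the largest group among them. SESN2 encodes Sestrin 2, a leucine sensor that restrains mTORC1 (ENSG00000130766.4, hg19 chr1:28586038-28609002, plus strand). Its level was 12.4 CPM in proliferating cells with DMSO and 102 CPM with GC7, and 53.8 and 52.0 CPM in OIS cells. The OIS level thus stood between the 2 proliferating values and barely differed between the OIS libraries, and the difference of log2 ratios was -3.07 (interval -3.64 to -2.57). VLDLR, a lipoprotein receptor, went from 5.49 to 61.5 CPM in proliferating cells and from 30.1 to 38.4 CPM in OIS cells, a difference of -3.08 (-3.92 to -2.38). DDIT4, an mTORC1 inhibitor induced by stress, went from 38.5 to 341 CPM in proliferating cells and from 15.1 to 29.5 CPM in OIS cells, a difference of -2.18 (-2.79 to -1.54). MKNK2, a kinase that phosphorylates the cap-binding factor eIF4E, went from 16.5 to 62.6 CPM and from 21.0 to 15.9 CPM, a difference of -2.31 (-3.01 to -1.64).

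At the other end stood ALDH1A1, a retinaldehyde dehydrogenase (ENSG00000165092.8, hg19 chr9:75515578-75695358, minus strand). It had 2401 and 2331 counts in the proliferating libraries, DMSO first, and 4 and 47 counts in the OIS libraries. Its difference of 3.06 (1.74 to 5.14) therefore rests on very low OIS counts, and its OIS level with GC7, 10.5 CPM, remained far under the 344 CPM of proliferating cells with GC7. SMAD6, an inhibitor of BMP signalling, stood at 41.2 and 39.3 CPM in proliferating cells and at 50.6 and 138 CPM in OIS cells, a difference of 1.51 (1.10 to 1.92). PRSS35, a serine protease-like secreted protein, went from 28.8 to 10.8 CPM in proliferating cells and from 939 to 1016 CPM in OIS cells, a difference of 1.52 (1.10 to 1.98). The remaining 9 of the 12 with the highest lower interval bounds were 6 ribosomal proteins, the TOP mRNA TPT1 and the cholesterol genes INSIG1 and ACAT2.

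Genes of the ATF4 axis had a smaller GC7 response in OIS cells without exception among those measured. All 10 members of this list had a negative difference, with a median of -1.58 against -0.03 over all members, and 7 were called lower and 0 higher, beside 2.78% and 1.96% of all members. The list holds VLDLR, SESN2, DDIT4 and CHAC1, which are also among the extremes shown above. It was drawn up with earlier results of these data known, so these counts are no finding apart from those genes. All 10 rose in proliferating cells, where their median log2 ratio was 2.37, and 2 rose in OIS cells, where it was 0.68. ATF4 itself stood at 128 and 353 CPM in proliferating cells and at 96.3 and 145 CPM in OIS cells, with a difference of -0.87 (-1.13 to -0.60) that did not reach 2-fold. CHAC1, which degrades glutathione, went from 54.3 to 335 CPM in proliferating cells and from 245 to 419 CPM in OIS cells, a difference of -1.85 (-2.10 to -1.61). CHAC1 thus started far higher in OIS cells and ended higher there. TRIB3, a pseudokinase that binds ATF4, went from 24.3 to 226 CPM and from 10.0 to 26.4 CPM, a difference of -1.83 (-2.56 to -1.03). DDIT3, which encodes CHOP, and CEBPB were also called lower (-1.33 and -1.31), while EIF4EBP1 (-0.92) and PPP1R15A (-0.87) were not. ATF3 was under the count minimum, with 4 and 52 counts in proliferating cells and 2 and 7 in OIS cells.

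Genes of amino acid supply followed the same direction. Of 13 members of the list of amino acid transporters and of asparagine and proline synthesis, all had a negative difference, 7 were called lower and none higher, and the median was -1.14. Their median log2 ratio was 1.14 in proliferating and -0.17 in OIS cells. With total-count scaling 5 of the 13 were called lower, and the call of SLC1A5 was among those that ended (-0.96). SLC7A11, the cystine importer, went from 529 to 1374 CPM in proliferating cells and from 1513 to 1186 CPM in OIS cells, a difference of -1.73 (-1.82 to -1.64). SLC3A2, the heavy chain that SLC7A11 and other carriers need, went from 560 to 1851 CPM and from 912 to 1122 CPM, a difference of -1.43 (-1.53 to -1.33). ASNS, asparagine synthetase, went from 66.9 to 446 CPM and from 42.9 to 77.5 CPM, a difference of -1.88 (-2.26 to -1.50). The smallest differences of the list belonged to ALDH18A1 (-0.57) and PYCR1 (-0.45), both enzymes of proline synthesis.

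Serine and mitochondrial one-carbon enzymes showed the same direction with fewer calls. Of 8 members 7 had a negative difference, 2 were called lower and none higher, and the median was -0.56. PSAT1, an enzyme of serine synthesis, stood at 84.0 and 644 CPM in proliferating cells and at 35.1 and 81.1 CPM in OIS cells, so that it rose in both states by unequal amounts, with a difference of -1.73 (-2.13 to -1.33). MTHFD2, a mitochondrial folate enzyme, differed by -1.13 (-1.53 to -0.72), and by -0.95 with total-count scaling, which ends its call. ALDH1L2, another mitochondrial folate enzyme, had log2 ratios of 2.17 in proliferating and 1.70 in OIS cells, and its interval for the difference (-1.0 to 0.12) included 0. MTHFD1, the cytosolic enzyme, stood at 0.13 (-0.16 to 0.42).

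Among the 20 cytosolic aminoacyl-tRNA synthetases, which attach amino acids to tRNAs, 15 had a negative difference, 5 were called lower and none higher, with a median of -0.60. WARS1 went from 269 to 684 CPM in proliferating cells and from 219 to 236 CPM in OIS cells, a difference of -1.24 (-1.43 to -1.06). MARS1 went from 339 to 529 CPM and from 809 to 547 CPM, a difference of -1.21 (-1.33 to -1.08). The proliferating and OIS libraries with GC7 thus lay close together for MARS1, and the DMSO libraries far apart. The other 3 calls were GARS1, IARS1 and LARS1, all of which ended with total-count scaling (-0.88, -0.98 and -0.84), and those of IARS1 and LARS1 also with the length trend removed. FARSA (0.25) was among the highest values of the list.

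NRF2 targets, which defend against oxidants, leaned toward a lower ratio in OIS cells. Of 23 members 19 had a negative difference, 6 were called lower and none higher, and the median was -0.42, or -0.24 with total-count scaling. OSGIN1 went from 16.3 to 55.7 CPM in proliferating cells and from 15.5 to 8.93 CPM in OIS cells, a difference of -2.54 (-3.37 to -1.76). GCLC, the first enzyme of glutathione synthesis, went from 24.5 to 60.7 CPM and from 26.5 to 17 CPM, a difference of -1.94 (-2.56 to -1.34). HMOX1, heme oxygenase 1, went from 107 to 248 CPM and from 42.4 to 27.5 CPM, a difference of -1.83 (-2.27 to -1.41). SQSTM1 and TXNRD1 (-1.57 and -1.39) were the other calls besides SLC7A11, which is also in the amino acid list. NQO1 (-0.50) and GCLM (-0.67) did not reach 2-fold, and the antioxidant enzyme GPX1 stood at 0.73 (0.47 to 0.99). SESN2, GDF15, TNFRSF10B and GADD45A were the 4 lower calls among 19 members of the p53 target list, of which the first also belongs to the ATF4 list, and PPM1D was the 1 higher call. TNFRSF10B and GADD45A fell short of 2-fold with total-count scaling (-0.90 and -0.93). CDKN1A, the best known p53 target, had a difference of -0.07 (-0.21 to 0.07).

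Cytosolic ribosomal protein genes formed the largest group with a higher response in OIS cells, as counted over the lists examined. Of 36 large-subunit members 34 had a positive difference, 14 were called higher (38.9%, against 1.96% of all members) and none lower, with a median of 0.88. Of 24 small-subunit members 23 had a positive difference, 13 were called higher (54.2%) and none lower, with a median of 1.04. Their median log2 ratios were -0.54 and -0.75 in proliferating cells and 0.32 and 0.30 in OIS cells. In proliferating cells 7 of the 60 passed as falls, and in OIS cells 1, RPS29, passed as a rise, and 19 of the 27 called passed in neither state alone. With total-count scaling 22 large-subunit and 18 small-subunit members were called higher, and with the length trend removed 12 and 7. Many ribosomal protein genes have processed pseudogenes of nearly the same sequence, and their counts are uncertain where reads could be shared.

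RPS19, a small-subunit protein (ENSG00000105372.2, hg19 chr19:42363988-42376994, plus strand), stood at 150 and 68.1 CPM in proliferating cells and at 101 and 159 CPM in OIS cells, a difference of 1.79 (1.51 to 2.08). RPL27A stood at 105 and 49.9 CPM and at 40.6 and 67.2 CPM, a difference of 1.79 (1.39 to 2.21). RPS29 stood at 51.5 and 28.4 CPM and at 16.4 and 39.8 CPM, a difference of 2.12 (1.53 to 2.76). In each of these 3 genes GC7 gave the lower value in proliferating cells and the higher value in OIS cells. TPT1, a translationally controlled growth protein with a TOP start, went from 209 to 86.1 CPM in proliferating cells and from 103 to 124 CPM in OIS cells, a difference of 1.54 (1.27 to 1.82). RPS6, whose phosphorylation reports mTORC1 activity, went from 279 to 149 CPM and from 172 to 191 CPM, a difference of 1.05 (0.83 to 1.26), or 0.97 with the length trend removed. The lowest values of both lists were RPL41 (-0.24), RPL22 (-0.23) and RPS27L (-0.11), all with intervals that included 0. The initiation and elongation factors had few calls: of 42 members 25 had a positive difference, with EEF1D (1.08, 0.77 to 1.38) the 1 call and EIF4A2 at 1.0 just short of 2-fold, and 4 were called higher with total-count scaling.

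A TOP start, taken as a C at an annotated first base followed by at least 4 pyrimidines, was found in 37 of 51 ribosomal protein members with a promoter sequence (72.5%), in 422 of all 5140 protein-coding members with one (8.21%) and in 1404 of 27305 genes of the promoter table (5.14%). Genes with several annotated starts counted when any start had the tract, read on the transcribed strand only. Within the ribosomal proteins the median difference was 0.92 with such a start and 0.95 without. Outside them, the 385 members with a TOP start had a median difference of -0.01 and the others -0.03, and 8 of 71 higher calls had one (11.3% against 7.57% of 5089 members). A match to this rule does not show that an mRNA is under TOP control. The part of the tract in these responses was not tested. TGATGNAAN was searched on both strands of the 300-base promoter windows. It was found in 15 of 40 members of the ATF4, one-carbon, amino acid and synthetase lists (37.5%). Among the lower calls 16 of 135 had it (11.9%), and 11 of the 53 that rose in proliferating cells (20.8%). Of 94 higher calls 3 had it (3.19%), against 146 of the 5140 members (2.84%) and 1215 genes of the table (4.45%). Within those 4 lists the median difference was -1.14 with a match and -0.87 without. These lists were drawn up from known ATF4 targets, so their share is no independent result. Some of the lower calls with a match belong to the same lists, so the share of the lower calls is not independent either.

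Genes of cholesterol synthesis and LDL uptake had a lower median GC7 ratio in proliferating than in OIS cells. Of 17 members 15 had a positive difference, 4 were called higher and none lower, and the median was 0.76. In proliferating cells 9 of them fell, with a median log2 ratio of -1.02, and in OIS cells none passed, with a median of -0.19. INSIG1, which holds SREBP in the endoplasmic reticulum and is itself an SREBP target (ENSG00000186480.8, hg19 chr7:155089486-155101945, plus strand), went from 108 to 40.03 CPM in proliferating cells and from 80.3 to 101 CPM in OIS cells, a difference of 1.75 (1.42 to 2.10). ACAT2, which makes acetoacetyl-CoA, went from 110 to 51.0 CPM and from 59.3 to 77.7 CPM, a difference of 1.49 (1.14 to 1.86). HMGCS1, the next enzyme of the path, went from 131 to 46.4 CPM and from 130 to 107 CPM, a difference of 1.23 (0.93 to 1.53). The DMSO levels of HMGCS1 were nearly equal in both states and the GC7 levels were not. FDPS (-0.07) and SC5D (-0.02) had the lowest values of the list.

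Mitochondrial ribosomal proteins had few calls. Of 38 mitochondrial large-subunit proteins (MRPLs) none was called in either direction, 25 had a positive difference, and the median was 0.19, or 0.37 with total-count scaling and 0.092 with the length trend removed. Their median log2 ratio was 0.17 in proliferating and 0.43 in OIS cells, and no member passed as a rise or a fall in either state. Of 25 small-subunit proteins (MRPSs) 1 was called higher, MRPS6 at 1.24 (0.79 to 1.70), and the median was 0.10, or 0.28 with total-count scaling and 0.016 with the length trend removed. Of the MRPs the study singles out, MRPL28 stood at 93.9 and 84.6 CPM in proliferating cells and at 70.7 and 101 CPM in OIS cells, a difference of 0.66 (0.34 to 1.0). MRPL13 (0.65, 0.30 to 1.01) and MRPL37 (0.48, 0.14 to 0.84) were of similar size with intervals above 0. The intervals of MRPL9 (0.30, -0.43 to 1.07), MRPL11 (0.30, -0.39 to 1.04) and MRPS30 (0.07, -0.35 to 0.49) included 0.

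Of 24 complex I subunits, which take electrons from NADH, none was called, 20 had a positive difference and the median was 0.22, or 0.40 with total-count scaling. Of 38 subunits of complexes II to V 34 had a positive difference, 4 were called higher and none lower, and the median was 0.41. The called subunits were UQCRB of complex III (1.03, 0.71 to 1.36), ATP5F1D of the ATP synthase (1.03, 0.59 to 1.48), COX7B and COX8A. UQCRB alone of them was still called with the length trend removed, or with a count minimum of 1. The 9 mitochondrial translation factors measured all had a negative difference, and none was called; with total-count scaling 3 of them, TUFM (0.16) and MTIF3 (0.07) included, were positive. HSPA9 and LONP1, a mitochondrial chaperone and a protease, were called lower with -1.11 (-1.27 to -0.95) and -1.35 (-1.78 to -0.93), of 10 mitochondrial chaperones and proteases, and HSPA9 fell short of 2-fold with total-count scaling (-0.93).

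Neither measured gene of the eIF5A hypusination list was called. EIF5A stood at 246 and 270 CPM in proliferating cells and at 174 and 186 CPM in OIS cells, a difference of -0.03 (-0.24 to 0.18). DHPS stood at 57.7 and 49.5 CPM and at 43.3 and 55.4 CPM, a difference of 0.57 (0.15 to 1.01). DOHH, EIF5A2 and the polyamine enzymes SMOX and SAT1 were under the count minimum, with 244, 362, 316 and 256 counts over the 4 libraries. None of the 8 polyamine members was called, and they ran from -0.66 for ATP13A2 to 0.47 for SRM. ODC1, the first enzyme of polyamine synthesis, stood at -0.21 (-0.64 to 0.22).

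Secreted factors of the senescence-associated secretory phenotype (SASP) included calls in both directions. Of 7 measured interleukins and related factors 6 had a negative difference, with a median of -0.77, and 3 were called lower and 1 higher. GDF15, a stress cytokine, went from 86.8 to 413 CPM in proliferating cells and from 177 to 256 CPM in OIS cells, a difference of -1.71 (-1.95 to -1.48). SPP1, osteopontin, went from 11.9 to 20.5 CPM and from 103 to 86.9 CPM, a difference of -1.02 (-1.58 to -0.50). VEGFA, an angiogenic factor, rose in both states and differed by -1.02 (-1.85 to -0.17). The calls of SPP1 and VEGFA ended with total-count scaling (both -0.84), with upper-quartile scaling (-0.97 and -0.96) and with a prior count of 5 (-0.98 and -0.99). PTX3, a pattern recognition protein, went from 664 to 451 CPM in proliferating cells and from 1341 to 1949 CPM in OIS cells, a difference of 1.10 (1.0 to 1.19). CCL2, a monocyte attractant, went from 140 to 77.7 CPM and from 26.5 to 33.1 CPM, a difference of 1.16 (0.68 to 1.66). With the length trend removed PTX3 (0.94), CCL2 (0.92) and VEGFA (-0.69) fell short of 2-fold. CXCL8 stood at 14 and 26.7 CPM and at 65.7 and 93.8 CPM, and the interval of its difference (-0.95 to 0.09) included 0. IL1B differed by -0.77 (-1.33 to -0.27). CXCL1, MIF and CDKN2A were under the minimum, with 235, 48 and 32 counts.

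Long genes stood apart in OIS cells. Exonic length here is the number of bases in all annotated exons of a gene, untranslated parts included. Across the 6326 members, which share the 4 libraries and are not independent replicates, the Spearman correlation of exonic length was -0.37 with the log2 ratio in OIS cells, -0.07 with that in proliferating cells and -0.28 with the difference. The median difference fell over 10 groups of equal size by length from 0.20 in the shortest, up to 2182 bases, to -0.28 in the longest, from 10496 bases. The share of members called lower was 6.65% in the longest group and 2.69% in the shortest, and the share called higher was 0.475% and 3.79%. The 45 lower calls that fell in OIS cells had a median exonic length of 10806 bases, against 5262 for the 64 that rose in proliferating cells and 5224 for all members.

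DYNC2H1, a motor of intraflagellar transport with 14284 exonic bases, went from 26.3 to 32.4 CPM in proliferating cells and from 124 to 32.6 CPM in OIS cells, a difference of -2.22 (-2.68 to -1.77). Both states thus ended at similar levels with GC7 from DMSO levels that lay far apart. SYNE1, a nuclear envelope spectrin-repeat protein with the longest exonic sequence among the members (45649 bases), went from 52.4 to 68.0 CPM and from 305 to 99.6 CPM, a difference of -1.98 (-2.28 to -1.69). SYNE3, of the same family, differed by -2.38 (-3.03 to -1.78). FLNC (-1.21, -1.32 to -1.10) and MYH9 (-1.20, -1.27 to -1.12), a filamin and a nonmuscle myosin heavy chain, were the 2 lower calls among 25 contractile and cytoskeletal genes, of which TUBA1A was called higher (1.23, 0.99 to 1.46). MYH9 fell just short of 2-fold with the length trend removed.

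Of 17 collagens 15 had a negative difference, 4 were called lower (COL10A1, COL6A3, COL13A1 and COL4A2) and none higher, and the median was -0.63. COL4A2 fell short of 2-fold with total-count scaling (-0.95) and with the length trend removed (-0.96). COL6A3, with 19624 exonic bases, went from 3064 to 5098 CPM in proliferating cells and from 5571 to 3035 CPM in OIS cells, a difference of -1.61 (-1.66 to -1.57). COL10A1 rests on 2 and 12 counts in proliferating cells, and its interval was -5.67 to -0.27. The most abundant collagens, COL1A1 (0.12, 0.08 to 0.16) and COL1A2 (-0.42, -0.45 to -0.40), were far from 2-fold. Among 23 other matrix proteins FBN1, fibrillin 1, was the 1 lower call, at -1.17 (-1.26 to -1.09), and it too ended under both settings (-0.99 and -0.86). THBS1 stood at -0.33 (-0.36 to -0.30). NPC1, a lysosomal cholesterol exporter, went from 244 to 283 CPM and from 1538 to 682 CPM, a difference of -1.39 (-1.52 to -1.26). With the length trend removed, the median of the collagens was -0.45 and that of the small-subunit ribosomal proteins 0.86, while that of the ATF4 axis was -1.75. The part of length in the single genes was not tested.

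Replication genes leaned toward a higher ratio in OIS cells. All 11 members of the MCM, PCNA and replication factor list had a positive difference, with a median of 0.62, and CDT1, which loads the MCM helicase, was the 1 call at 1.78 (1.09 to 2.52). CDT1 went from 42.6 to 17.6 CPM in proliferating cells and from 14.1 to 20.3 CPM in OIS cells. TYMS, thymidylate synthase, went from 86.1 to 49.5 CPM and from 17.3 to 22.8 CPM, a difference of 1.19 (0.59 to 1.81). Of 29 mitotic genes 20 had a positive difference and 1, MAD2L1, was called higher (1.38, 0.49 to 2.41) on 14 and 56 OIS counts, against 3 calls with total-count scaling. EGR1, an immediate-early factor, stood at 107 and 53.9 CPM in proliferating cells and at 5.47 and 11.4 CPM in OIS cells, a difference of 2.01 (1.09 to 3.10). Of 45 replication-dependent histones 41 had a positive difference and 1 was called, H4C13 (1.07, 0.56 to 1.60), which has 364 exonic bases. With total-count scaling 5 histones were called higher, and with the length trend removed none was called higher, 1 was called lower and H4C13 stood at 0.81.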

How the data were processed

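Ribosome footprints of 4 BJ-Ras-ER libraries, 1 per condition, were analysed. The authors aligned reads to hg19 with STAR (version 2.5.3a, per the submitters' processing notes) and used featureCounts 1.5.1 with GENCODE version 19 to count reads in genes. The values are whole-number read counts as deposited, with no normalization. No strand, multi-mapping or overlap setting appears in the file headers, so reads of a gene and its antisense partner or near-identical copies cannot be told apart. Per the study's methods the linkers carried unique molecular identifiers. The sources used here do not give whether reads were collapsed by them or how reads were trimmed.

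The tables carry Ensembl numbers and no symbols, and the gene table supplied (RefSeq, GRCh38.p14) carries no Ensembl numbers. A symbol was therefore assigned by matching gene models: same chromosome and strand, with the local distance between the builds inferred from gene starts and ends shared by neighbouring genes. This named 35301 of 57820 features, and the names are inferred. Of 146 Ensembl numbers known from general knowledge and used only as a check, 145 were named and all 145 received the known symbol. No RefSeq gene coordinates were used in the results other than those of the promoter sequences.

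Members were nuclear features with at least 400 counts over the 4 libraries. Counts were scaled with TMM (edgeR 4.0.16, R 4.3.3) over the members, and log2 ratios used a prior count of 1. The 95% interval of a difference is the exact conditional interval of the odds ratio (scipy 1.17.1). The 4 libraries leave 0 residual degrees of freedom for the difference, so no test was run and no p-value is given. The calling rule needed a 2-fold difference and an interval without 0. On counts simulated from the 6326 members without replicate spread, it recovered 93% of 100 genes changed 2.5-fold and 100% of 100 changed 4-fold, and called 5 unchanged genes. The simulated counts had counting error only and known library sizes, as the interval assumes, so this gives no accuracy for calls on real libraries. Members with 400 to 449 counts (372) had a median absolute difference of 0.38 and 22 calls, and the 423 features with 350 to 399 counts, just outside, 0.35 and 42.

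Members and the 56 gene lists were chosen with earlier results of these data known. Named genes were, among named members of at least 500 exonic bases, the 12 with the highest and the 12 with the lowest interval bounds, up to 6 per direction with opposite responses (0 were found), the genes the study names, and the 2 highest and 2 lowest of each list. The length limit was not applied to the list picks, which let in H4C13 (364 bases). Further members, such as HMGCS1, RPS6, SLC3A2, HMOX1, SQSTM1, TXNRD1, TRIB3, DDIT3, NQO1, GCLM, DICER1 and genes named to complete a count, were chosen after their values were seen. Results for some genes are not reported here. Alternatives were DESeq2 (version 1.42.0) size factors, total-count and upper-quartile scaling, other count minimums, a prior count of 5, a 1.5-fold limit and removal of features under 500 bases. After the data were seen, removal of a running median over exonic length (401 members wide) and restriction to protein-coding members were added.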

Additional observations from a re-analysis of the deposited data

Results flagged for a closer look

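The 2 states moved in opposite directions in 15 of the 23 members shown with the most extreme differences: both log2 ratios of GC7 over DMSO had counting intervals that excluded 0, with opposite signs. With 1 library per group the difference was not tested. Extremes and calls were both picked by the size of the difference, which opposite signs make larger. Their shares are thus set in part by that choice, and no member passed the 2-fold rule with opposite signs. GC7 gave the higher value in proliferating cells and the lower value in OIS cells for OSGIN1 (-2.54), SYNE3 (-2.38), SYNE1 (-1.98), SLC7A11 (-1.73) and COL6A3 (-1.61). It gave the lower value in proliferating cells and the higher value in OIS cells for ALDH1A1 (3.06), RPS29 (2.12), RPS19 (1.79), RPL27A (1.79), INSIG1 (1.75), TPT1 (1.54), PRSS35 (1.52), ACAT2 (1.49), RPS4X (1.46) and RPL37 (1.41). With total-count scaling the pattern held for 14 of these 15, since the OIS interval of OSGIN1 (-1.32 to 0.08) then included 0. Over all 6326 members it held for 452 (7.15%), or 494 (7.81%) with total-count scaling. Among all called members it held for 56 of the 124 higher and 66 of the 176 lower calls, and 18 of the 56 were cytosolic ribosomal proteins. The OIS ratio was small in several of them, with log2 values of 0.11 for PRSS35, 0.26 for TPT1, 0.32 for INSIG1 and -0.35 for SLC7A11.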

How the results depend on the processing

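No paired analysis was possible because the labels give no replicate numbers and each condition has 1 library, and for the same reason no library could be left out. Over 11 alternative settings no called gene among the 233 followed changed its direction. A call needs a 2-fold difference and the median difference moved much less under every setting, so the absence of reversals says little. None of the 14 lists of the plot by list changed the sign of its median. Of the other 40 lists with members, 14 changed sign under at least 1 setting, 9 of them with total-count scaling and 2 with the length trend removed. Total-count scaling gave 238 higher and 111 lower calls, a median absolute difference of 0.32, and list medians of 0.37 for the MRPLs, 0.28 for the MRPSs, 1.06 and 1.22 for the large and small cytosolic ribosomal subunits, 0.40 for complex I, 0.59 for complexes II to V, -0.38 for the one-carbon enzymes, -0.96 for amino acid transport, -0.42 for the tRNA synthetases, -0.45 for the collagens, 0.80 for the MCM list, 0.94 for the cholesterol genes and -0.24 for the NRF2 targets. Upper-quartile scaling gave 0.47 for complexes II to V, -0.55 for the tRNA synthetases and -0.58 for the collagens. It gave 141 higher and 148 lower calls in total, and DESeq2 size factors gave 129 and 167. Counts of single lists with few calls could move more. The lower calls among the SASP interleukins and related factors went from 3 to 1 with upper-quartile scaling. The count minimum sets how many features are examined. With at least 40 counts there were 452 higher and 499 lower calls, a median absolute difference of 0.38, and medians of 0.88 for the small subunit, -1.03 for amino acid transport and -0.60 for the collagens. With at least 1000 counts there were 47 higher and 92 lower calls, a median absolute difference of 0.28, and medians of 0.95 for the small subunit, -0.71 for the tRNA synthetases and -0.60 for the collagens. With at least 1 count there were 462 higher and 641 lower calls, a median absolute difference of 0.74, and medians of 0.10 for the MRPLs, 0.76 and 0.83 for the large and small subunits, 0.35 for complexes II to V, -1.08 for amino acid transport and -0.53 for the collagens. The 1.5-fold limit gave 526 higher and 722 lower calls. With the running median over exonic length removed, the median absolute difference was 0.29, and the medians were 0.092 for the MRPLs, 0.86 for the small subunit, 0.28 for complexes II to V, -0.51 for the tRNA synthetases, -0.45 for the collagens and -0.49 for the NRF2 targets, and 96 of the 124 higher and 127 of the 176 lower calls were kept. The other count minimums and the 500-base limit also recomputed the scaling factors, so the features and the scaling changed together. The cause of these moves was not tested.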

Other observations

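DICER1, the nuclease that matures microRNAs, fell in both states and was called lower in OIS cells. It held 14113 counts in proliferating cells with DMSO and 1335 with GC7, and 64225 and 2842 counts in OIS cells, which is 3231, 197, 29299 and 635 CPM. Its log2 ratios were -4.03 and -5.53, and the difference was -1.50 (-1.59 to -1.40). Gene-level counts do not show where in the gene the reads lie, and this was not tested.

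CD274, which encodes the immune checkpoint ligand PD-L1, stood at 25.2 and 21.1 CPM in proliferating cells and at 33.3 and 70.8 CPM in OIS cells, a difference of 1.33 (0.81 to 1.88). LTBP1, a latent TGF-beta binding protein, went from 23.8 to 60.7 CPM and from 343 to 244 CPM, a difference of -1.83 (-2.19 to -1.50). KRT18, the 1 member among 6 epithelial markers, went from 233 to 116 CPM in proliferating cells and stood at 46.1 and 46.2 CPM in OIS cells, a difference of 1.02 (0.64 to 1.40) that fell short of 2-fold with the length trend removed (0.96).

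The oncogene fusion can be followed only in part through its partner genes. HRAS stood at 737 and 498 CPM in proliferating cells and at 1459 and 1221 CPM in OIS cells, with a difference of 0.31 (0.21 to 0.40). ESR1 stood at 381 and 283 CPM and at 383 and 451 CPM, with a difference of 0.67 (0.52 to 0.82). Counts on endogenous genes and on the transgene cannot be told apart in these tables.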
